A study of Mus musculus with 78 samples.

Results

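Selenoproteins carry selenocysteine, an amino acid that is built on its own tRNA and inserted at a UGA codon that would otherwise end translation. The 10 genes described here were chosen by name in the 3 gene count tables of the series, out of 55401 genes in each table. They are the 6 genes Sephs1, Sephs2, Pstk, Sepsecs, Eefsec and Secisbp2, of the pathway that makes and inserts selenocysteine, and the 4 redox selenoenzymes Txnrd1, Txnrd2, Gpx1 and Gpx4. All 10 passed the filter on low counts in all 3 tables.

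In mammals a seryl-tRNA synthetase first loads the selenocysteine tRNA with serine. PSTK phosphorylates that serine, SEPHS2 supplies selenophosphate, and SEPSECS joins the products into selenocysteine on the tRNA. The elongation factor EEFSEC then brings the loaded tRNA to ribosomes, and SECISBP2 binds the SECIS element, an RNA hairpin in selenoprotein messages. Thioredoxin reductases keep thioredoxin reduced, and glutathione peroxidases remove peroxides at the expense of glutathione. ZFP143, the mouse counterpart of ZNF143, is a zinc finger transcription factor that was first described as an activator of the selenocysteine tRNA gene. That tRNA gene was not analysed here.

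The cells were E14TG2a mouse embryonic stem cells, in which both alleles of Zfp143 carried an FKBP degron with HA and GFP sequences (ZFP143-FKBP), from clones picked after sorting. All groups carried the tag, so no library came from untagged cells, and the treated groups received 500 nM dTAG-V1, a degrader of the tagged protein, while control groups received DMSO. Nascent RNA (TT-seq, in which newly made RNA is labelled and captured) was taken in DMSO and at 2, 6 and 24 h after addition of dTAG-V1, and polyadenylated RNA (RNA-seq) in DMSO and at 24, 48 and 72 h. A further RNA-seq table held cells kept for 24 h in DMSO or dTAG-V1, and the same treatments followed by 24 h of retinoic acid (RA). The dTAG-V1 libraries with RA therefore had 48 h of depletion in all. The change from stem cell medium to differentiation medium came with RA, and no library had that medium alone. In DMSO and in dTAG-V1 the libraries with RA were taken at 48 h and those without it at 24 h. Effects of RA, of the medium and of the time in culture therefore cannot be told apart.

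Each table held 8 libraries in 4 groups of 2, with total counts of 9721568 to 16532077 in TT-seq, 10261851 to 15316700 in the RNA-seq time course and 13890761 to 27089033 in the RA table. The stem cell markers were at 3330 to 3880 CPM in sum (counts scaled to a library of 1000000) in every TT-seq library, and fell from 5380 to 5500 CPM in DMSO to 3880 to 3940 CPM after 72 h in RNA-seq, where Nanog and Sox2 passed the test. Zfp143 RNA rose in every comparison of dTAG-V1 with DMSO, from 71.3 and 74.5 CPM to 162 and 165 CPM after 2 h in TT-seq. The degron acts on the protein, so the RNA does not show how far ZFP143 was depleted.

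ZFP143 occupied the promoters of 2 of the 10 genes, Sepsecs and Sephs1, and of none of the 4 selenoenzymes. A promoter was taken as occupied where a peak reached into the 2000 bp before or the 1000 bp after a transcript start and its centre was within 2000 bp of that start. By the same rule 13.8% of the genes tested in TT-seq were occupied, so 2 of 10 is close to the background. Sepsecs (ENSMUSG00000029173.12, mm10 chr5:52640087-52669708, minus strand) had a peak of 492 bp at chr5:52669483-52669974 with a 56.6-fold enrichment over input, rank 533 of 3189 peaks. Its summit lay 16 bp upstream of the start of the gene. Sephs1 (ENSMUSG00000026662.13, chr2:4881564-4910557, plus strand) had a broader peak of 847 bp at chr2:4881458-4882304 with a 35.1-fold enrichment, rank 1063. That summit lay between 2 annotated starts, 261 bp downstream of the first and 420 bp upstream of the next. Neither peak overlapped a CTCF peak, and neither was at the promoter of a further gene.

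**Figure D1:**
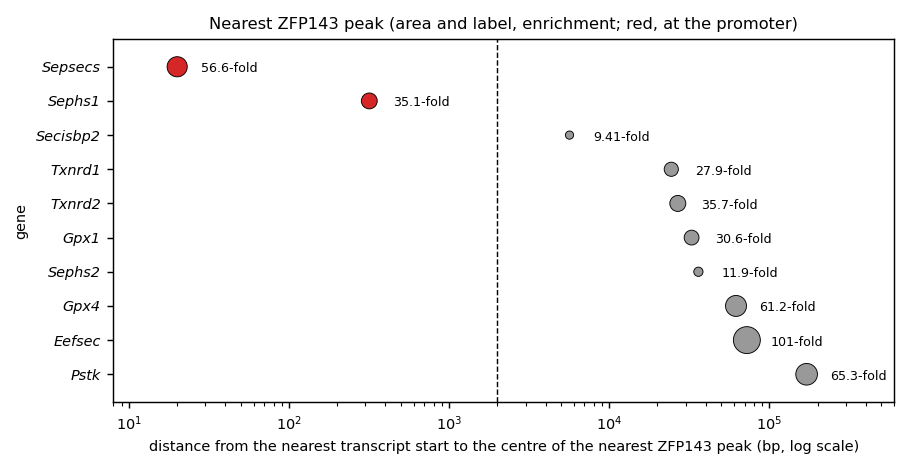
Distance in bp (log scale) from a transcript start of each of the 10 genes to the centre of the nearest ZFP143 peak. Point area and label give the enrichment of that peak over input, and the dashed line marks 2000 bp. Sepsecs at 20 bp and Sephs1 at 317 bp lie left of the line, and Secisbp2 follows at 5647 bp.

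The 8 other genes lay 5647 to 170890 bp from the nearest peak. Secisbp2 was nearest, with a weak peak of 9.41-fold at 5647 bp. Pstk, which encodes the kinase one step before SEPSECS, was farthest.

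The peaks at Sepsecs and Sephs1 each held a sequence of the form CCCANNATGC, the core of a known ZNF143 binding site, searched on both strands. Within 300 bases about the summit this form was present in 23.3% of the 3189 peaks, while 1.88% of 32851 promoter windows of the same length from RefSeq held it. The other part of the longer site, ACTACAA, was in 19.3% of peaks and 3.24% of promoter windows, and in neither peak of these 2 genes. The 2 sites are shown because they are the only matches near the summits of the 2 occupied promoters. They are given 5′ to 3′ on the strand of the gene from GRCm38 (mm10), with the reverse complement of the core in capitals. The Sepsecs window is chr5:52669707-52669736 (minus strand) and the Sephs1 window is chr2:4881792-4881821 (plus strand).
Sepsecs: gcagcgcgttGCATCCTGGGcctcggtgtg
Sephs1: cgcgcccggtGCATTGTGGGagcgccgcgg

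On the opposite strand these cores read CCCAGGATGC at Sepsecs and CCCACAATGC at Sephs1. Their centres lay 3 and 19 bases from the peak summits. The Sepsecs site ended upstream of the transcript start, with its centre 14 bp before it, while the Sephs1 site lay 243 bp inside the longest annotated transcript. RefSeq promoter windows were found for 9 of the 10 genes, all but Sepsecs, and none of their 15 windows held the core. The 2 RefSeq windows of Sephs1 begin at positions 4881977 and 4882588 of chromosome 2, downstream of its site, and so do not cover it.

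Transcription of Sepsecs, the selenocysteine synthase gene, fell within 2 h of dTAG-V1. In TT-seq it was at 16.1 and 26.1 CPM in DMSO, at 2.63 and 4.64 CPM after 2 h, at 5.15 and 3.55 CPM after 6 h, and at 5.02 and 9.80 CPM after 24 h. All 6 depleted libraries lay below both DMSO libraries. In CPM the 2 DMSO libraries differed from each other by more than any pair of depleted libraries did. As a ratio they differed by less than the 2 h pair and the 24 h pair. The log2 change at 2 h was −2.52 (SE 0.42, adjusted p = 0.0152 by edgeR's quasi-likelihood test), which is 17.4% of the DMSO level. At 6 h it was −2.28 (SE 0.42, adjusted p = 0.0226). At 24 h it was −1.50 (SE 0.40) and did not pass the test (adjusted p = 0.0643), but passed with the replicate number as a block (log2 −1.52, adjusted p = 0.0115, edgeR). These are changes in RNA from a culture, in which fewer cells that express a gene and less RNA per cell cannot be told apart.

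Sepsecs was the only one of the 10 genes called in TT-seq, where a call needed an adjusted p below 0.05 and a log2 change beyond 0.5 in size and replicates were not blocked. With a replicate block 2 were called lower at 2 h and at 6 h, Sepsecs and Gpx4, and 1 at 24 h, Sepsecs, beside 3.70%, 5.35% and 6.79% of all tested genes called lower in that fit. The labels give no shared culture for a replicate number, but the differences between replicates correlated in all 6 pairs of TT-seq groups (r from 0.205 to 0.651). Without the block, at 2 h 1 of 10 was called lower against 2.43% of the 17870 tested genes, and 0 were called higher against 0.168%. At 6 h 1 was called lower against 2.83%, and 0 higher against 0.397%. At 24 h 0 were called in either direction, against 4.09% lower and 2.02% higher, while 3 were lower and 0 higher at an unadjusted p under 0.05 in edgeR, and DESeq2 called 1 lower, Sepsecs. Among tested genes with a ZFP143 peak at the promoter, 16.4% were called lower at 2 h. Sepsecs ranked 46 of the 435 genes called lower at 2 h by its log2 change. The call of Sepsecs at 2 h was lost without DMSO replicate 2 (adjusted p = 0.119) or either 2 h replicate (adjusted p = 0.158 and 0.0732, edgeR). The call at 6 h was likewise lost without DMSO replicate 2 (adjusted p = 0.106) or either 6 h replicate (adjusted p = 0.132 and 0.195).

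**Figure D2:**
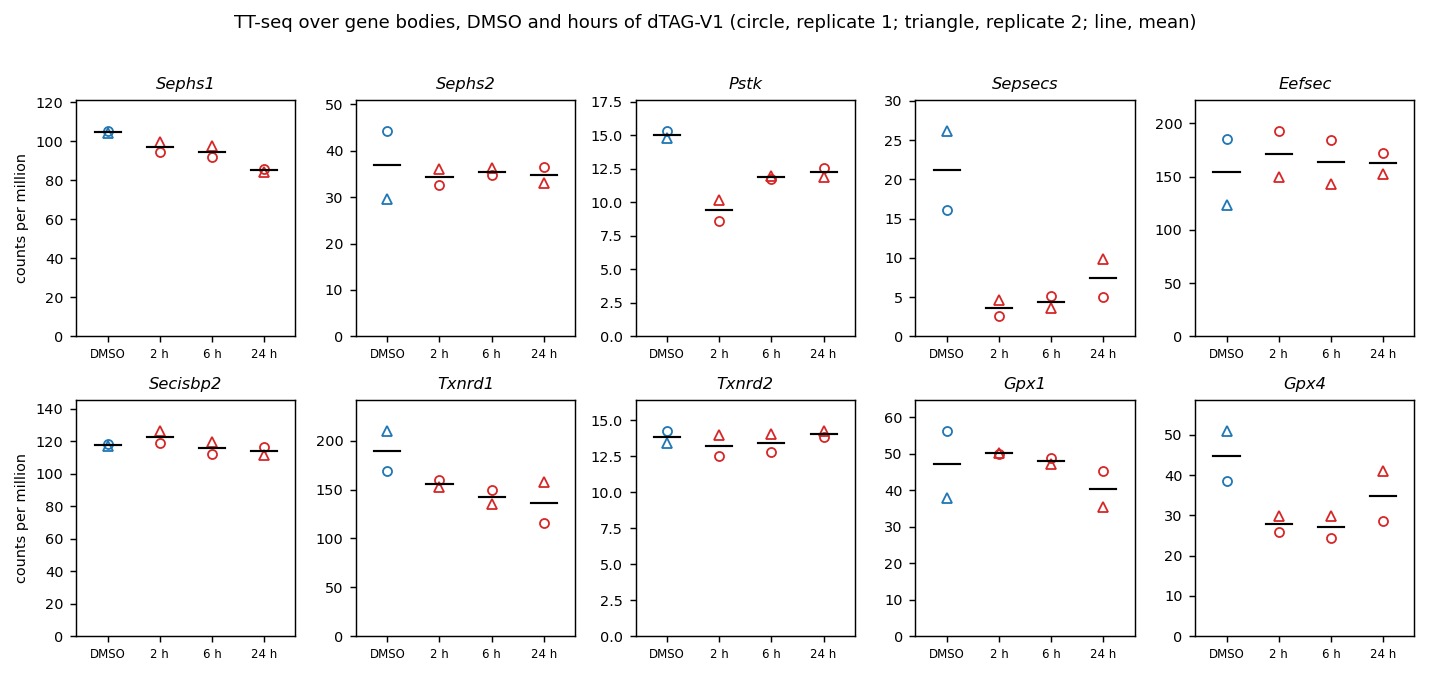
TT-seq values of the 10 genes in CPM (y axis from 0, own scale per gene) in DMSO (blue) and with dTAG-V1 for 2, 6 or 24 h (red), 1 symbol per library with the mean of 2 as a line. Sepsecs drops from 16.1 and 26.1 CPM to 2.63 and 4.64 CPM at 2 h, while Sephs1 stays between 84.3 and 105 CPM throughout.

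Sephs1, which encodes a paralog of SEPHS2 that lacks selenocysteine, was the other gene with a peak. Its nascent RNA was at 105 and 104 CPM in DMSO, 94.5 and 99.5 CPM after 2 h, 92.0 and 97.5 CPM after 6 h, and 86.1 and 84.3 CPM after 24 h. All depleted libraries lay below DMSO, by a small margin. The log2 changes of −0.11 (SE 0.11), −0.14 (SE 0.11) and −0.30 (SE 0.11) did not pass the test (adjusted p = 0.762, 0.543 and 0.156, edgeR).

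Among genes without a peak, the values nearest to a call in TT-seq were those of Pstk and Gpx4, the peroxidase that removes lipid hydroperoxides from membranes. Pstk was at 15.3 and 14.8 CPM in DMSO and at 8.61 and 10.2 CPM after 2 h, a log2 change of −0.68 (SE 0.19, adjusted p = 0.143). Gpx4 was at 38.5 and 51.0 CPM in DMSO and at 25.7 and 29.9 CPM after 2 h, a log2 change of −0.69 (SE 0.22, adjusted p = 0.234). In both genes the groups did not overlap at 2 h, and neither passed the edgeR test without a block. With the replicate block Gpx4 passed at 2 h (log2 −0.68, adjusted p = 0.0117) and at 6 h (log2 −0.71, adjusted p = 0.00796, edgeR). The 6 other genes, Sephs2, Eefsec, Secisbp2, Txnrd1, Txnrd2 and Gpx1, had log2 changes between −0.28 and 0.15 at 2 h. Txnrd1 went on to −0.42 (SE 0.17) at 6 h and −0.47 (SE 0.17) at 24 h, with all 6 depleted libraries, at 116 to 160 CPM, below the DMSO libraries at 169 and 210 CPM, and did not pass the edgeR test (adjusted p = 0.252 and 0.15).

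In the RNA-seq time course Sepsecs was low by 24 h and stayed low. It was at 23.6 and 22.3 CPM in DMSO, 6.05 and 5.11 CPM after 24 h, 5.12 and 4.19 CPM after 48 h, and 4.44 and 5.39 CPM after 72 h. The groups of dTAG-V1 overlapped each other and lay far below DMSO. The log2 changes were −2.03 (SE 0.14), −2.29 (SE 0.14) and −2.20 (SE 0.14), with adjusted p = 4.42e-10, 1.25e-11 and 1.12e-11 in edgeR's test against a fold change of 1.5. Between 72 h and 24 h Sepsecs changed by −0.17 (SE 0.19, adjusted p = 1.00 in the same test).

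Txnrd1, Gpx1 and Gpx4 were called at later times than Sepsecs. All 3 were already lower at 24 h by less than a fold change of 1.5 (adjusted p = 1.76e-07, 9.10e-09 and 0.0369 against no change, edgeR's quasi-likelihood test). At 24 h 1 of the 10 genes (Sepsecs) was called lower, at an adjusted p under 0.01 against a fold change of 1.5, beside 3.41% of the 13925 tested genes, and 0 were called higher beside 2.32%. At 48 h 3 were called lower (Sepsecs, Txnrd1 and Gpx1) beside 7.71% of all tested genes, and 0 higher beside 10.5%. At 72 h 5 were called lower (Sepsecs, Sephs1, Txnrd1, Gpx1 and Gpx4) beside 12.0%, and 0 higher beside 13.7%. The median log2 change of the 10 genes went from −0.25 at 24 h to −0.73 at 48 h and −0.87 at 72 h, while that of all tested genes was 0.02, 0.01 and 0.02. In edgeR 0 of the 10 genes were higher at any of these times at an unadjusted p under 0.05 against a fold change of 1.5, and DESeq2 called 0 higher. Because the 3 comparisons share the same 2 DMSO libraries, they are not independent of each other. The labels give no time for these DMSO libraries, so longer depletion and longer time in culture cannot be told apart.

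Txnrd1 (chr10:82833951-82897712, plus strand), the cytosolic thioredoxin reductase, was at 426 CPM in both DMSO libraries. It was at 334 and 339 CPM after 24 h, 232 and 216 CPM after 48 h, and 209 and 203 CPM after 72 h. Each group lay below the one before it with no overlap. The log2 change was −0.34 (SE 0.04) at 24 h, −0.93 (SE 0.04, adjusted p = 2.43e-08, edgeR) at 48 h and −1.05 (SE 0.04, adjusted p = 4.29e-11, edgeR) at 72 h.

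Gpx1 (chr9:108338903-108340343, plus strand), the abundant cytosolic peroxidase, was at 432 and 443 CPM in DMSO, 328 and 339 CPM after 24 h, 234 and 224 CPM after 48 h, and 237 and 231 CPM after 72 h. Its decrease was complete by 48 h, with log2 changes of −0.93 (SE 0.04, adjusted p = 1.09e-08) at 48 h and −0.90 (SE 0.04, adjusted p = 2.83e-08, edgeR) at 72 h. Scaled by library size alone, Gpx1 was no longer called at 72 h (log2 change −0.68, adjusted p = 0.017, edgeR).

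Gpx4 (chr10:80047166-80056439, plus strand) was at 197 and 178 CPM in DMSO, 176 and 160 CPM after 24 h, 121 and 103 CPM after 48 h, and 78.4 and 85.1 CPM after 72 h. It went down between each pair of time points without overlap of the groups. The log2 change was −0.16 (SE 0.06) at 24 h, −0.75 (SE 0.06, adjusted p = 0.0114, just short of the threshold) at 48 h and −1.19 (SE 0.07, adjusted p = 6.30e-10, edgeR) at 72 h. A transcribed processed pseudogene, Gpx4-ps2, is annotated. How reads that match both were handled in RNA-seq is not given in the sources used here, while TT-seq kept only reads that mapped uniquely.

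Sephs1, occupied by ZFP143 but not called in TT-seq, reached the threshold in RNA-seq only at 72 h. It was at 128 and 120 CPM in DMSO, 92.7 and 90.8 CPM after 24 h, 78.1 and 73.7 CPM after 48 h, and 59.9 and 65.3 CPM after 72 h. The groups were in order without overlap, and the log2 changes were −0.43 (SE 0.06), −0.70 (SE 0.06) and −0.98 (SE 0.06). In edgeR's test against a fold change of 1.5 the adjusted p was 1.00, 0.0271 and 1.57e-07. Tested against no change, the decrease at 24 h had an adjusted p of 2.37e-07 (edgeR's quasi-likelihood test), so it was outside the replicate spread but small.

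**Figure D3:**
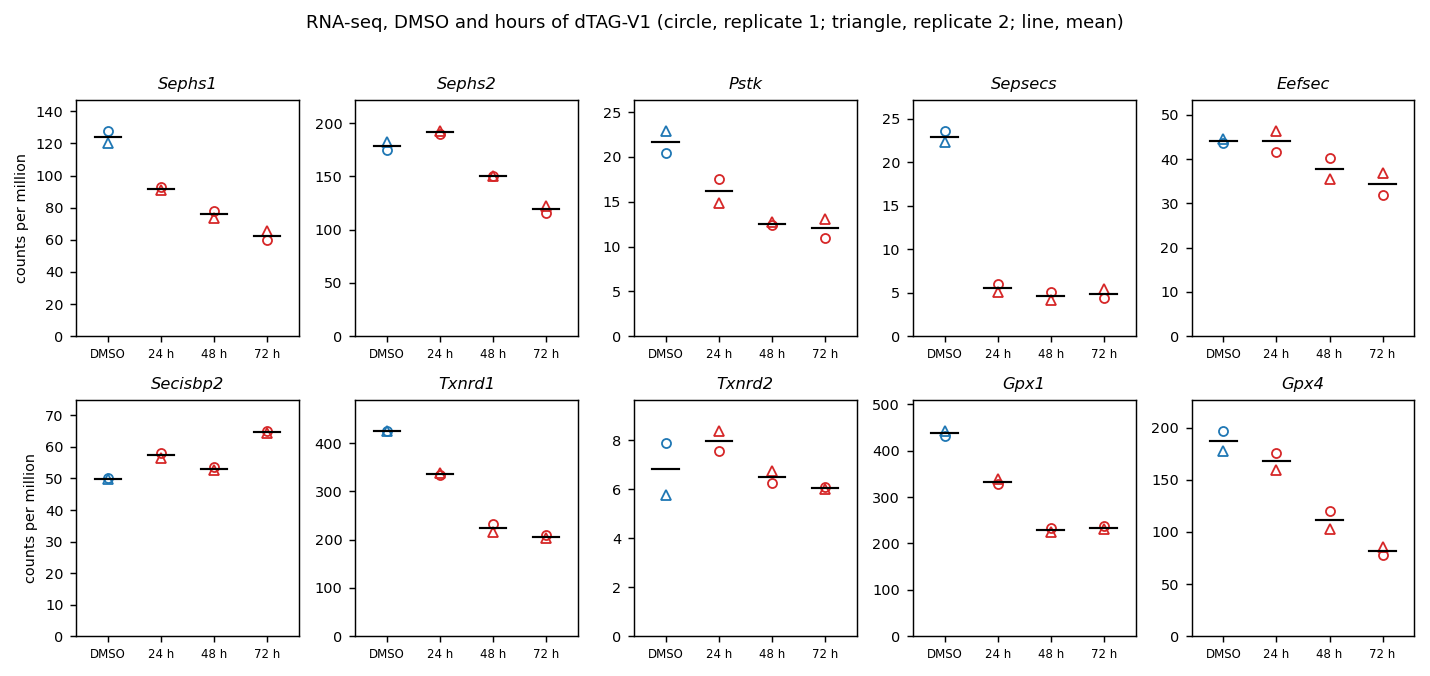
RNA-seq values of the 10 genes in CPM (y axis from 0, own scale per gene) in DMSO (blue) and with dTAG-V1 for 24, 48 or 72 h (red), 1 symbol per library with the mean of 2 as a line. Sepsecs drops in a single step by 24 h, Txnrd1, Gpx4 and Sephs1 go down in steps to 72 h, and Secisbp2 is highest at 72 h with 65.1 and 64.5 CPM.

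The remaining 5 genes were not called at any time. Pstk, at 20.4 and 22.9 CPM in DMSO, was at 11.01 and 13.03 CPM after 72 h, a log2 change of −0.84 (SE 0.12, adjusted p = 0.0181, edgeR). Sephs2, the selenophosphate synthetase that is itself a selenoprotein, was at 175 and 182 CPM in DMSO and at 116 and 122 CPM after 72 h, a log2 change of −0.58 (SE 0.05). Eefsec changed by −0.35 (SE 0.08) and Txnrd2, the mitochondrial thioredoxin reductase, by −0.15 (SE 0.18) at 72 h. Tested against no change at 72 h, adjusted p was 3.28e-07 for Pstk, 9.2e-12 for Sephs2, 0.000514 for Eefsec and 0.441 for Txnrd2 (edgeR's quasi-likelihood test). Secisbp2 was the only one with a positive value at all 3 times, from 50.2 and 49.7 CPM in DMSO to 65.1 and 64.5 CPM after 72 h (log2 change 0.37, SE 0.06). Its increase had an adjusted p of 7.25e-06 against no change in edgeR's quasi-likelihood test but was below a fold change of 1.5. The whole gene body of Pstk overlaps Fgfr2 on the opposite strand, and part of it Ikzf5. The kit of the RNA-seq libraries kept the strand, but which strand column was counted is not given in the sources used here.

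A direct comparison of 72 h with 24 h called 2 of the 10 genes lower, Gpx4 and Txnrd1, beside 6.60% of all tested genes, and 0 higher beside 7.53%. Gpx4 fell by 1.03 on the log2 scale (SE 0.07, adjusted p = 4.46e-07, edgeR). Txnrd1 fell by 0.71 (SE 0.04, adjusted p = 0.00855, edgeR), close to the threshold, and lost the call when any of the 4 libraries compared was left out (adjusted p from 0.0132 to 0.0629). No DMSO library was labelled with either time, so here too longer depletion and longer time in culture cannot be told apart. This comparison was added after the values had been seen.

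Per kilobase of exon the DMSO levels spanned a wide range. Gpx1 was highest at 304 ± 5.44 CPM per kb (SD, n = 2), followed by Gpx4 at 109 ± 7.78, Sephs2 at 82.0 ± 2.24, Txnrd1 at 60.1 ± 0.03 and Sephs1 at 20.9 ± 0.87 CPM per kb. Eefsec was at 15.7 ± 0.23, Secisbp2 at 10.8 ± 0.08, Sepsecs at 3.29 ± 0.13, Pstk at 2.73 ± 0.22 and Txnrd2 at 1.55 ± 0.34 CPM per kb. No neighbours in this order overlapped in their 2 libraries. Sepsecs and Pstk, which act in succession on the serine-loaded tRNA, were thus the least abundant messages of the pathway, above only Txnrd2 among the 10.

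For the 3 genes called at 2 or more times, the genes with the most similar course over the 8 libraries were picked by Pearson's r of log2 CPM, as a description. They were Atp5d, Sfpq and Ube2d1 for Sepsecs (r from 0.995 to 0.996), 1700001L05Rik, Tuba4a and Slc25a1 for Txnrd1 (r of 0.998 each), and Uhrf1, Prep and Pkm for Gpx1 (r of 0.998 each). The libraries fall into 4 groups of 2, so the 8 points are not independent.

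The RA table asked how depletion and differentiation act together. Before RA Sepsecs was the only one of the 10 genes called in dTAG-V1 against DMSO. Sephs1 (log2 −0.46), Txnrd1 (−0.43), Pstk (−0.38) and Eefsec (−0.32) were lower by less than a fold change of 1.5, with adjusted p = 2.98e-05, 5.16e-05, 0.00453 and 0.00589 against no change in edgeR's quasi-likelihood test. Sepsecs was at 23.2 and 21.9 CPM in DMSO and at 6.80 and 6.46 CPM after 24 h of dTAG-V1, a log2 change of −1.77 (SE 0.12, adjusted p = 1.42e-08, edgeR). These 24 h cultures were other libraries than those of the time course, in which the change was −2.03. The 1 gene called lower stands beside 3.66% of the 15915 tested genes, and 0 were called higher beside 2.74%. Gpx1, at 367 and 345 CPM in DMSO and 365 and 319 CPM in dTAG-V1, changed by −0.06 (SE 0.07), where the time course had given −0.39 (SE 0.04) at 24 h.

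Sepsecs was called higher after RA in depleted cells. It went from 6.80 and 6.46 CPM to 19.1 and 21.2 CPM, a log2 change of 1.61 (SE 0.12, adjusted p = 1.50e-08, edgeR), and in DMSO cells from 23.2 and 21.9 CPM to 34.5 and 32.0 CPM, a log2 change of 0.56 (SE 0.10, adjusted p = 0.51). Depleted cells after RA thus lay near the DMSO cells before RA and below the DMSO cells after RA. After RA the depletion effect was −0.73 (SE 0.10, adjusted p = 0.115 in edgeR's test against a fold change of 1.5, not called). Against no change, this effect and the RA change in DMSO had adjusted p = 3.39e-06 and 3.95e-05 (edgeR's quasi-likelihood test). The interaction, the RA effect in dTAG-V1 minus that in DMSO, was 1.04 (SE 0.16, adjusted p = 2.14e-05, edgeR's quasi-likelihood test), so the 2 changes with RA differed on the log2 scale. The depleted cells had 24 h of dTAG-V1 before RA and 48 h after it, so in the comparison within dTAG-V1 and in the interaction RA and the longer depletion cannot be told apart. In the time course, without RA, Sepsecs was at −2.03 at 24 h and −2.29 at 48 h against DMSO.

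Pstk and Txnrd2 differed the other way. Pstk was at 24.3 and 21.7 CPM in DMSO and 17.8 and 17.5 CPM in dTAG-V1 before RA, and at 39.2 and 38.8 CPM in DMSO and 20.9 and 21.3 CPM in dTAG-V1 after RA. Its level after RA in DMSO cells was above all other groups. After RA the depletion effect was −0.89 (SE 0.10, adjusted p = 0.00361, edgeR), the only one of the 10 genes called lower there, beside 7.36% of all tested genes, with 0 called higher beside 9.10%. Sephs1 (log2 −0.73, adjusted p = 0.0511) and Txnrd1 (log2 −0.71, adjusted p = 0.0596) missed that threshold, and both were lower against no change (adjusted p = 5.82e-08 and 2.62e-08, edgeR's quasi-likelihood test). The call was lost when any of the 4 libraries compared was left out (adjusted p from 0.0107 to 0.0327) and with scaling by library size alone (adjusted p = 0.208, edgeR). The interaction of Pstk was −0.50 (SE 0.14, adjusted p = 0.00623), just past the size threshold. Without RA the log2 change of Pstk in the time course was −0.42 (SE 0.11) at 24 h and −0.79 (SE 0.12) at 48 h of depletion, a difference in the same direction as the interaction. The interaction of Pstk was −0.43 to −0.49, short of the size threshold, without DMSO replicate 2, dTAG replicate 1, DMSO RA replicate 1 or either dTAG RA replicate. Fgfr2, which overlaps Pstk on the other strand, also had a negative interaction (log2 −1.30, SE 0.47, adjusted p = 0.0321, edgeR), and its part in the Pstk values was not tested.

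Txnrd2 was at 6.09 and 7.74 CPM in DMSO and 7.79 and 8.49 CPM in dTAG-V1 before RA, and at 12.0 and 12.3 CPM in DMSO and 6.32 and 6.10 CPM in dTAG-V1 after RA. The 2 DMSO libraries after RA stood apart from the 6 others. The interaction was −1.21 (SE 0.22, adjusted p = 1.24e-04, edgeR), while in the time course the log2 change of Txnrd2 was 0.24 at 24 h and −0.05 at 48 h, neither called. The depletion effect after RA, −0.97 (SE 0.15), just missed its threshold (adjusted p = 0.0129). In all, the interaction called 2 of the 10 genes lower, Pstk and Txnrd2, beside 18.0% of all tested genes, and 1 higher, Sepsecs, beside 13.7%. Markers of neural or RA-treated cells moved with these values. The 7 of that list summed to 574 to 671 CPM in DMSO with RA and to 260 to 283 CPM in dTAG-V1 with RA, and 5 of the 6 tested were called lower in dTAG-V1. Their part in the Pstk and Txnrd2 values was not tested.

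**Figure D4:**
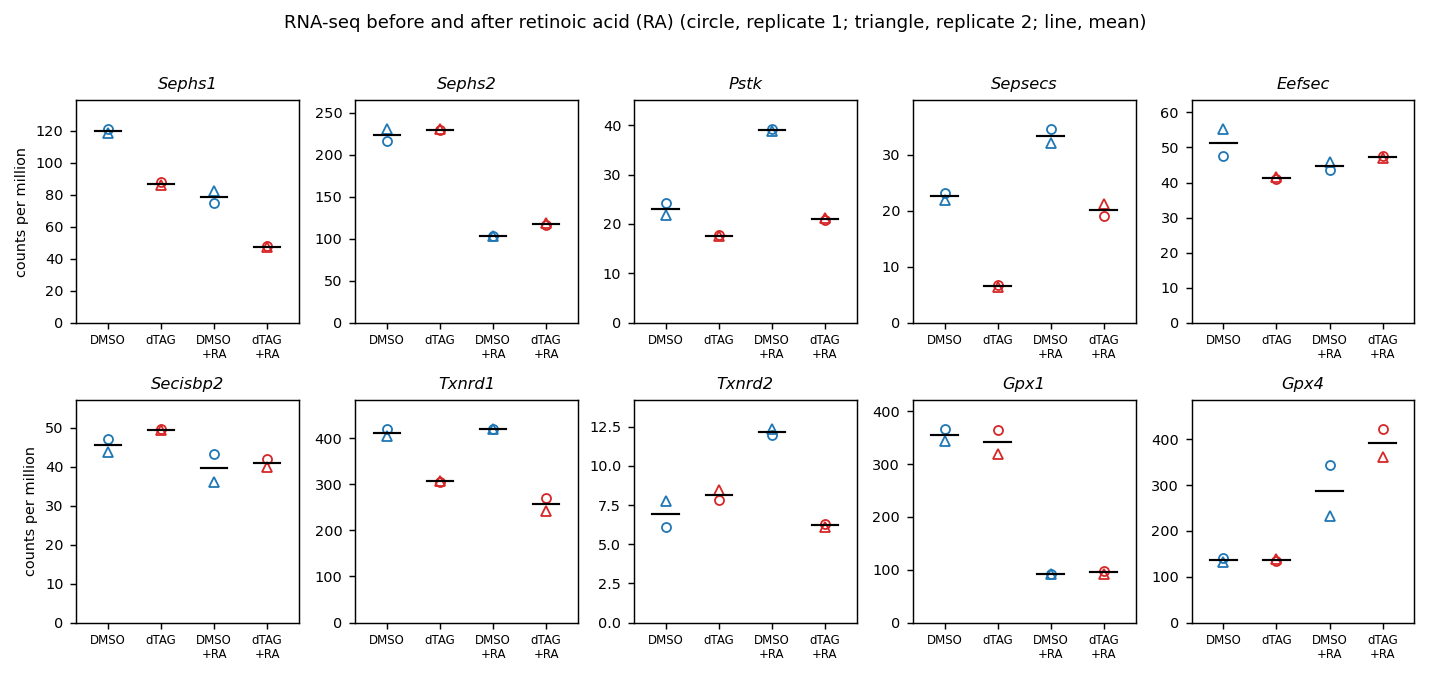
RNA-seq values of the 10 genes in CPM (y axis from 0, own scale per gene) in DMSO and dTAG-V1 before and after RA, with DMSO in blue, dTAG-V1 in red, 1 symbol per library and the mean of 2 as a line. Pstk and Txnrd2 are high only in DMSO after RA, Sepsecs in depleted cells returns to 19.1 and 21.2 CPM after RA, and Gpx1 falls and Gpx4 rises after RA in both.

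The peroxidases moved in opposite directions with RA. Gpx1 fell from 367 and 345 CPM to 92.4 and 91.8 CPM in DMSO (log2 −1.95, SE 0.08, adjusted p = 2.32e-13, edgeR) and from 365 and 319 CPM to 97.9 and 92.2 CPM in dTAG-V1 (log2 −1.85, SE 0.08, adjusted p = 5.63e-13). Gpx4 rose from 141 and 133 CPM to 343 and 232 CPM in DMSO (log2 1.07, SE 0.12, adjusted p = 1.24e-04) and from 134 and 139 CPM to 422 and 360 CPM in dTAG-V1 (log2 1.52, SE 0.12, adjusted p = 3.56e-08, edgeR). The 2 DMSO libraries after RA were far apart for Gpx4, and without replicate 1 of that group the rise was 0.76. DESeq2 did not call the rise of Gpx4 in DMSO, and called 0 of the 10 genes higher there, beside 20.3% of all tested genes. The difference between the 2 rises was 0.45 (SE 0.17, adjusted p = 0.0339, edgeR's quasi-likelihood test) and did not pass the size threshold. This difference was 0.76 without DMSO RA replicate 1 and 0.61 without dTAG RA replicate 2. It was smaller without DMSO RA replicate 2 or dTAG RA replicate 1. Gpx4 thus had a lower level after 72 h of depletion in stem cell medium and a higher level after RA.

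The selenophosphate synthetase genes were both lower after RA. Sephs2 fell from 216 and 230 CPM to 103 CPM in both libraries in DMSO (log2 −1.11, SE 0.07, adjusted p = 5.55e-08, edgeR) and by 0.97 (SE 0.07, adjusted p = 3.60e-06) in dTAG-V1. Sephs1 changed by −0.61 (SE 0.07, adjusted p = 0.291) in DMSO and by −0.87 (SE 0.08, adjusted p = 2.57e-04, edgeR) in dTAG-V1, where it was lowest of all 4 groups at 47.8 and 47.2 CPM. The difference between these 2 effects was −0.26 (SE 0.10) and below the size threshold. In DMSO cells RA called 2 of the 10 genes lower, beside 18.1% of all tested genes, and 1 higher, beside 25.8%. In dTAG-V1 cells RA called 3 lower, beside 18.5%, and 2 higher, beside 25.0%. Scaling by library size alone moved the median log2 change of all genes by 0.32 in DMSO and 0.39 in dTAG-V1 with RA, and in dTAG-V1 neither Sephs1 nor Sephs2 was then called (log2 −0.48 and −0.57). Stem cell markers fell from 6350 to 6520 CPM in sum in DMSO to 675 to 1000 CPM with RA, and in dTAG-V1 from 5480 to 5510 CPM to 1290 to 1510 CPM. All 7 passed the test in both. Primitive endoderm markers rose from 4.72 to 5.85 CPM in sum to 36.1 to 37.7 CPM in DMSO. In dTAG-V1 they rose from 8.62 to 11.1 CPM to 52.4 to 54.4 CPM, and all 5 were called higher in both. Of the fibroblast markers, 2 of 3 tested were called higher in DMSO and 3 of 3 in dTAG-V1. Of the neural or RA markers, 5 of 6 tested were called higher and 1 lower in each. The part of these lists in the changes of the 10 genes was not tested.

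**Figure D5:**
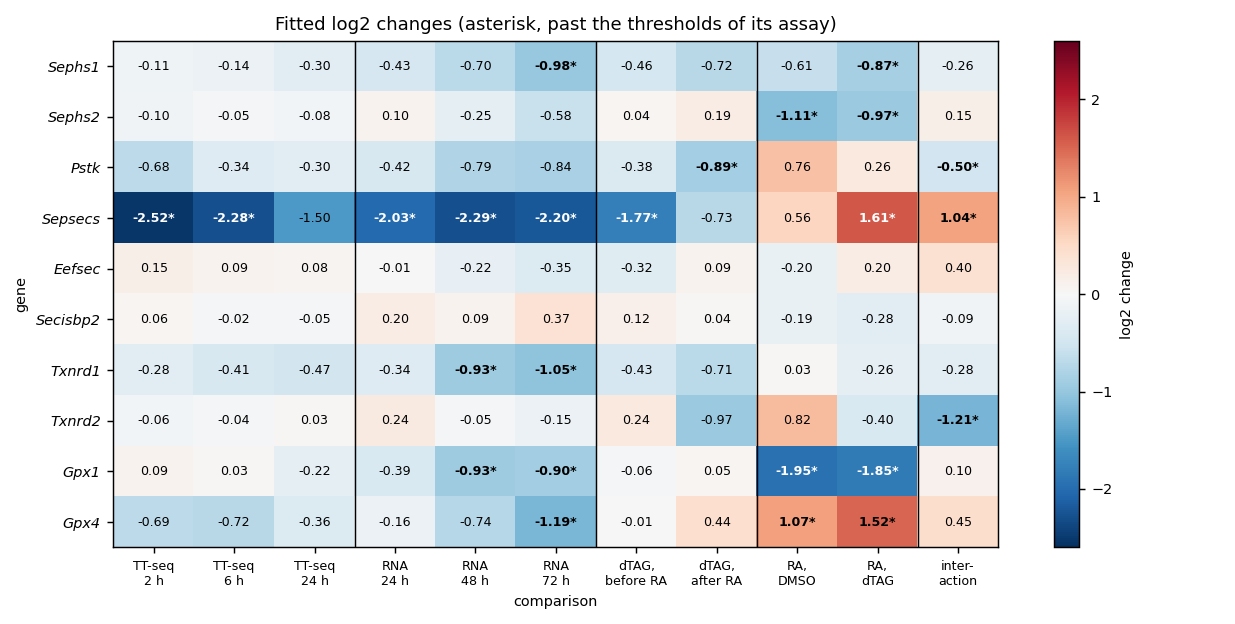
Fitted log2 changes of the 10 genes (rows) in 11 comparisons (columns), blue for lower and red for higher, with an asterisk and bold type where the thresholds of the assay were passed. Sepsecs is called in 8 of the 11 columns, Eefsec and Secisbp2 in none, and no gene is called higher in a comparison of dTAG-V1 with DMSO.

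The list of other genes of selenocysteine synthesis and insertion held Trnau1ap, Sars, Scly, Secisbp2l, Eif4a3, Rpl30 and Ncl, all tested, and 0 of 7 were called in RNA-seq at any time of the time course, with medians between −0.13 and −0.03. Beside 3.41%, 7.71% and 12.0% of all tested genes lower and 2.32%, 10.5% and 13.7% higher at 24, 48 and 72 h, 0 of 7 is near the background. At an unadjusted p under 0.05 (edgeR) and by DESeq2 the count was also 0 at each time. With RA 3 of 7 were called lower in DMSO, beside 18.1% of all tested genes, namely Eif4a3 (log2 −1.12), Ncl (−1.59) and Scly (−0.86), and 2 in dTAG-V1, beside 18.5%, Eif4a3 (−1.16) and Ncl (−1.58). Rpl30, a ribosomal protein that also binds SECIS elements, was the only one of the 7 with a ZFP143 peak at its promoter. It was at 130 and 157 CPM in DMSO, 69.1 and 90.2 CPM after 2 h, 52.5 and 80.5 CPM after 6 h, and 64.8 and 84.4 CPM after 24 h of dTAG-V1 in TT-seq. All depleted libraries lay below DMSO, and it was called at 6 h (log2 −1.11, SE 0.23, adjusted p = 0.0404) and at 24 h (log2 −0.94, SE 0.23, adjusted p = 0.0494, edgeR), both near the threshold. Both calls were lost when any single DMSO, 2 h or compared library was left out. In RNA-seq Rpl30 changed by −0.46 (SE 0.06) at 24 h and was not called, and after RA the depletion effect was −0.84 (SE 0.08, adjusted p = 0.00216, edgeR), a call lost without DMSO RA replicate 1 or dTAG RA replicate 2 and with library size alone.

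Of the 19 other selenoprotein genes 16 were tested in each table, and 0 were called in TT-seq at 2, 6 or 24 h, which is near the background of 2.43%, 2.83% and 4.09% of all tested genes lower and 0.168%, 0.397% and 2.02% higher. DESeq2 also called 0 there, and at an unadjusted p under 0.05 edgeR had 0 at 2 h, 1 lower at 6 h and 1 higher at 24 h. In RNA-seq 0 were called lower and 2 higher at 24 h, beside 3.41% and 2.32% of all tested genes. At 48 h 3 were lower and 3 higher, beside 7.71% and 10.5%, and at 72 h 3 were lower and 4 higher, beside 12.0% and 13.7%. DESeq2 called 0 lower and 0 higher at 24 h, beside 2.41% and 0.732% of all tested genes. With DESeq2 3 were lower and 2 higher at 48 h (5.24% and 5.60%) and at 72 h (8.30% and 8.06%). The lower genes at 72 h were Dio3, a deiodinase that inactivates thyroid hormone, with a log2 change of −2.74 (SE 0.28), Gpx2, with −0.99 (SE 0.07), and Selenoh, with −1.05 (SE 0.06). Among the higher genes were Selenon, of the endoplasmic reticulum, with 2.52 (SE 0.28), Selenop, the secreted selenium carrier, with 1.94 (SE 0.27), and Gpx3, the secreted peroxidase, with 1.28 (SE 0.17). Selenon and Selenop were low, at 1.38 and 0.78 CPM and at 1.01 and 1.35 CPM in DMSO. At 24 h the call of Selenop was lost without any 1 of the 4 libraries compared, and that of Selenon without DMSO replicate 2 or 24 h replicate 1. At 72 h 7 of the 16 had negative and 9 positive log2 changes, with a median of 0.24 beside 0.02 for all tested genes. Selenoi was the only one of the 19 with a ZFP143 peak, a gene named after the values were seen, and it changed by −0.06 (SE 0.17) at 2 h and was not called.

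After RA the depletion lowered Selenop and Gpx2. Selenop was at 25.0 and 26.5 CPM in DMSO and 10.5 and 8.99 CPM in dTAG-V1, a log2 change of −1.40 (SE 0.13, adjusted p = 3.47e-06, edgeR), whereas before RA it was higher in dTAG-V1 (log2 1.93, SE 0.32, adjusted p = 0.00122). Before RA it was near 0.5 CPM in DMSO and 1.97 and 1.83 CPM in dTAG-V1, so that value rests on few reads, and it lost the call without either DMSO library (adjusted p = 0.0111 and 0.0177, edgeR). The call of Gpx2 after RA (log2 −1.69, SE 0.30) was lost without DMSO RA replicate 1 or dTAG RA replicate 2. In dTAG-V1 against DMSO, DESeq2 called 0 of the 16 genes higher before RA, beside 0.899% of all tested genes. After RA it called 1 lower, beside 4.81%.

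A list of 20 genes of the thioredoxin and glutathione systems and of the oxidative stress response held calls in both directions. All 20 were tested, and 0 were called in TT-seq at 2 or 6 h, beside 2.43% and 2.83% of all tested genes lower and 0.168% and 0.397% higher. There edgeR had 0 lower and 1 higher at 2 h and 2 lower and 2 higher at 6 h at an unadjusted p under 0.05, and DESeq2 called 1 higher at each, Slc7a11. Of the 20, 2 were called lower and 2 higher at 24 h, beside 4.09% and 2.02% of all tested genes. In RNA-seq 1 was lower and 1 higher at 24 h, beside 3.41% and 2.32%. At 48 h 7 were lower and 2 higher, beside 7.71% and 10.5%, and at 72 h 6 were lower and 2 higher, beside 12.0% and 13.7%. Gss, the glutathione synthetase, was at 108 and 103 CPM in DMSO, 116 and 126 CPM after 2 h, 98.7 and 108 CPM after 6 h, and 47.0 and 58.4 CPM after 24 h in TT-seq. In TT-seq it was thus called only at 24 h (log2 −0.998, SE 0.14, adjusted p = 0.00483, edgeR), and in RNA-seq it reached −1.98 (SE 0.06) at 72 h. Gsr, the glutathione reductase, went from 493 and 505 CPM in DMSO to 144 and 151 CPM after 72 h (log2 −1.76, SE 0.04, adjusted p = 3.26e-20, edgeR).

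Slc7a11, the cystine importer, rose from 2.02 and 2.28 CPM in DMSO to 11.4 and 10.3 CPM after 24 h (log2 2.32, SE 0.20, adjusted p = 1e-08, edgeR) and was still at 11.6 and 11.7 CPM after 72 h. Hmox1, the stress-induced heme oxygenase, was at 104 and 102 CPM in DMSO, 96.0 and 102 CPM after 24 h, and 392 and 391 CPM after 72 h (log2 1.93, SE 0.05). Nqo1, a quinone reductase, was the only one of the 20 with a ZFP143 peak and fell to a log2 change of −1.67 (SE 0.08, adjusted p = 9.51e-14, edgeR) at 72 h. In TT-seq Nqo1 changed by 0.33 (SE 0.18) at 2 h and was not called (adjusted p = 0.548). After RA the depleted cells had more Slc7a11 (log2 2.81, SE 0.31) and Hmox1 (log2 2.12, SE 0.08), both called. They had less Prdx1 (log2 −1.26, SE 0.07) and Prdx2 (log2 −1.37, SE 0.07), peroxiredoxins that thioredoxin reduces, also both called. In all, 5 of the 20 were called lower and 3 higher there, beside 7.36% and 9.10% of all tested genes.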

How the data were processed

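The authors mapped reads to mm10 with STAR on GENCODE vM25. Each of the 3 deposited tables gives the number of reads, as unnormalised counts, for every gene and library. TT-seq counts were made after removal of duplicates, over whole gene bodies and split by strand with HTSeq, and RNA-seq counts by the counting mode of STAR. The ZFP143 peaks deposited by the authors, from MACS2 against input, list for each peak its fold over input, a ratio, and its q-value as −log10. There was 1 peak list per factor, so binding had no replicates. 4C files were not used.

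Of 55401 genes, 55141 were matched to GENCODE vM21, of the same build. A gene was tested where 4 or more of the 8 libraries exceeded 10 counts, with TMM scaling of the totals of tested genes, in 1 fit per table with edgeR 4.0.16 in R 4.3.3. TT-seq and the interaction used the quasi-likelihood test (adjusted p under 0.05, absolute log2 change above 0.5). RNA-seq used glmTreat against a fold change of 1.5 (adjusted p under 0.01). P-values were adjusted over all tested genes by the method of Benjamini and Hochberg. CPM are counts per 1000000 of the scaled library total, and SE is that of the log2 change. The common biological coefficient of variation was 17.2%, 3.65% and 5.92% in the TT-seq, time course and RA tables. No 2 libraries were identical. The fits were checked on simulated counts. The study states 2 biological replicates, and p-values measure the spread between these. Genes with few reads also carry counting error.

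The 10 genes, lists and comparisons were chosen with earlier results of these data known. Named from other lists were genes called in a dTAG-V1 comparison, at most 5 per list and table with the greatest change, beside Zfp143, genes that overlap a member and genes with a similar course. Selenoh, Selenoi, Eif4a3, Ncl, Scly, Nanog and Sox2 were named after values were seen. Sequences are from GRCm38 and promoter windows from RefSeq on that build. Alternatives were DESeq2 1.42.0 as tool or scaling, library size alone, no count filter, a replicate block, the thresholds of the other assay, only the 2 groups compared, each library left out, and stricter peak rules.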

Additional observations from a re-analysis of the deposited data

Results flagged for a closer look

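For 5 results, 2 effects under the same contrast differed by a test of the difference itself. The change with RA differed between dTAG-V1 and DMSO for Sepsecs (log2 difference 1.04, higher in dTAG-V1), Pstk (−0.50) and Txnrd2 (−1.21), in edgeR's quasi-likelihood test of the interaction. The dTAG-V1 libraries had 24 h of depletion before RA and 48 h after it, so RA and the longer depletion cannot be told apart here. Without RA, Pstk was at log2 −0.42 at 24 h and −0.79 at 48 h. For Txnrd2 and Pstk both DMSO libraries after RA lay above the 6 others. Levels with dTAG-V1 differed between 72 h and 24 h for Gpx4 (log2 −1.03) and Txnrd1 (log2 −0.71), in edgeR's test against a fold change of 1.5. There longer depletion and longer time in culture cannot be told apart. Groups of 2 libraries were too small to look for outlying samples.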

How the results depend on the processing

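Counts of the 10 genes called were within 1.5 times of the reported ones in most settings, and no called value reversed. With DESeq2 size factors the interaction called 1 lower and 2 higher (15.8% and 15.4% of all tested genes). With library size alone, which moved the median log2 change of all genes by 0.13 to 0.22 in the time course, the calls were 1 lower at 72 h against 24 h (5.17% of all), 0 lower after RA (4.79%), 4 higher with RA in DMSO (32.4%), 1 lower with RA in dTAG (9.54%), and 1 lower and 2 higher for the interaction (15.1% and 15.9%). DESeq2 called 1 lower in TT-seq at 24 h (Sepsecs, 4.54% of all), 1 at 72 h against 24 h (3.43%), 0 lower after RA (4.81%), 0 higher with RA in DMSO (20.3%) and 1 lower for the interaction (13.5%). Without a count filter 2 were lower in TT-seq at 2 and at 6 h (Gpx4 added, 2.13% and 2.69% of all), 1 at 24 h (Sepsecs, 3.24%) and 2 after RA (Txnrd2 added, 4.45%). With the thresholds of the other assay 0 were called in TT-seq at 2 or 6 h, 6 lower at 48 h, 5 at 72 h against 24 h, 5 after RA, 4 higher with RA in DMSO and 0 in either direction for the interaction. Under those thresholds 16.9% of all tested genes were lower at 48 h, 16.7% at 72 h against 24 h and 18.6% after RA, 34.3% were higher with RA in DMSO, 0.392% and 0.470% were lower in TT-seq at 2 and 6 h, and 4.40% were lower and 4.48% higher for the interaction. The cause was not tested.

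Over all genes, library size alone gave 1109 lower and 2736 higher at 72 h, where 1677 and 1912 are reported, 385 and 495 at 24 h (475 and 323) and 1518 and 5447 with RA in dTAG (2939 and 3980). DESeq2 called 102 higher at 24 h (323 reported) and 143 before RA (436). In TT-seq at 2 h, 435 lower and 30 higher became 774 and 162 without a filter, 662 and 87 with a replicate block and 70 and 5 with the thresholds of the other assay.

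Replicate numbers were shared between groups but not stated to mark a shared culture. Differences between replicates correlated across TT-seq groups (r from 0.205 to 0.651 in 6 pairs of groups) and hardly in the time course (−0.046 to 0.06) or RA table (−0.146 to 0.167). With a replicate block 2 were called lower in TT-seq at 2 and at 6 h (Gpx4 added), 1 at 24 h (Sepsecs, adjusted p = 0.0115, edgeR), 1 at 72 h against 24 h (6.46% of all), and Gpx4 was added at 48 h.

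With 1 library left out, where the lone library of a group is assumed to vary like the others, the number called lower ranged from 0 to 1 in TT-seq at 2 h, at 6 h and after RA, 1 to 2 at 72 h against 24 h and for the interaction, 3 to 4 at 48 h and 5 to 6 at 72 h, and the number called higher 0 to 1 with RA in DMSO and 1 to 2 for the interaction. The number with a ZFP143 peak was 2 under each peak rule. Fits with only the 2 groups compared do not exist for the interaction. Sepsecs had 33 to 343 counts per library in TT-seq, and its SE at 2 h was 0.42. Pstk, with 108 to 194 counts, and Txnrd2, with 138 to 232 counts, had smaller SE of 0.19 and 0.18. How far depth limits these values was not tested.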
